A study of Mus musculus with 6 samples.

Results

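Caveolae are small pits of the plasma membrane, and together with dysferlin and its partners they are studied in muscle as parts of the machinery that lets a fiber bear and mend damage to its surface. The 10 genes described here were taken by their symbols from the 54525 gene rows counted in each library: the ferlins *Dysf* and *Myof*, the caveolins *Cav1*, *Cav2* and *Cav3*, the cavins *Cavin1* and *Cavin4*, the tripartite motif gene *Trim72*, and the annexins *Anxa1* and *Anxa2*. The study compared C2C12 cells, an established mouse muscle line, before differentiation (D0, myoblasts, 3 libraries) and after 5 days of it (D5, myotubes, 3 libraries). All 6 samples were wild type, carried no treatment and yielded total RNA; the growth medium held fetal bovine serum and the differentiation medium horse serum. They come from one line in culture, without nerve, load or matrix of a muscle, and no membrane was wounded on purpose. The labels do not say whether the 3 samples of a group were grown separately. The p-values set each difference against the spread between these samples and may not extend to new cultures.

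A caveola is shaped by caveolins, which sit as hairpins in the inner leaflet, and by cavins, which coat them from the cytoplasm. Caveolin-1 and caveolin-2 occur together in many cell types, whereas caveolin-3 and cavin-4 are the forms known from striated muscle. Dysferlin and myoferlin are membrane-anchored proteins with a row of calcium-binding C2 domains, the first tied to resealing of the muscle membrane and the second to myoblast fusion. TRIM72, also called MG53, carries vesicles to a wound in muscle, and annexins bind exposed phospholipid when calcium enters. Mutations in the human genes for dysferlin, caveolin-3 and cavin-1 cause muscle disease.

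Of the 10 genes, 6 were higher and 4 lower at D5 by edgeR's quasi-likelihood test (adjusted p under 0.05, over 16290 genes tested), and in each the 3 D5 libraries lay wholly above or below the 3 D0 libraries. Those shares, 60% and 40%, stand beside 42.2% of all tested genes called higher and 40.8% called lower, and 82.9% of all tested genes were called in either direction, so being called sets few genes apart in this comparison. Groups without overlap were as common, at 42.2% upward and 41.1% downward. The median absolute log2 fold change of the members was 2.43, beside 0.67 over all tested genes, and 6 of the 10 exceeded 1 in size, beside 35.3% of all. The members were chosen with earlier results of these data known, so these sizes describe them and are no evidence that such genes change more than others. The signed median was 1.73, also with *Cav3* at its lower bound, and 0.0022 over all tested genes. All 10 passed the filter on low counts, *Cav3* through its D5 libraries only, so its difference was bound to be large.

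Counts on genes per library ran from 36555048 to 40895840 at D0 and from 25449759 to 25811300 at D5. Levels of the same gene across libraries are given as CPM, counts scaled to a fixed library total after TMM normalization. When genes are set side by side they are given as TPM, which divides by exonic length and carries no TMM factor. Summed TPM of a family are therefore not on the scale of the fold changes. TMM assumes that most genes keep their share, and scaling to the ERCC spike-in RNAs instead moved the median log2 fold change of all genes to -0.60. With it, 29.6% of all calls were upward, against 50.8% with TMM. The spike-in share was uneven between the D5 libraries, at 1.2%, 0.72% and 2.09%, against 0.859%, 0.828% and 0.726% at D0. The shift under this scaling therefore differs from library to library. In bulk RNA, fewer cells of a type and less RNA per cell cannot be told apart. The labels were checked against marker lists. All 7 myotube markers were higher at D5, with a summed level of 65.9 to 80.6 CPM at D0 and 13560 to 14430 at D5, and all 6 markers of proliferating myoblasts were lower, from 1693 to 1704 down to 76.6 to 85.5 CPM. The label of cell type reads myoblast for both groups, and the D5 libraries did not match that state.

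**Figure D1:**
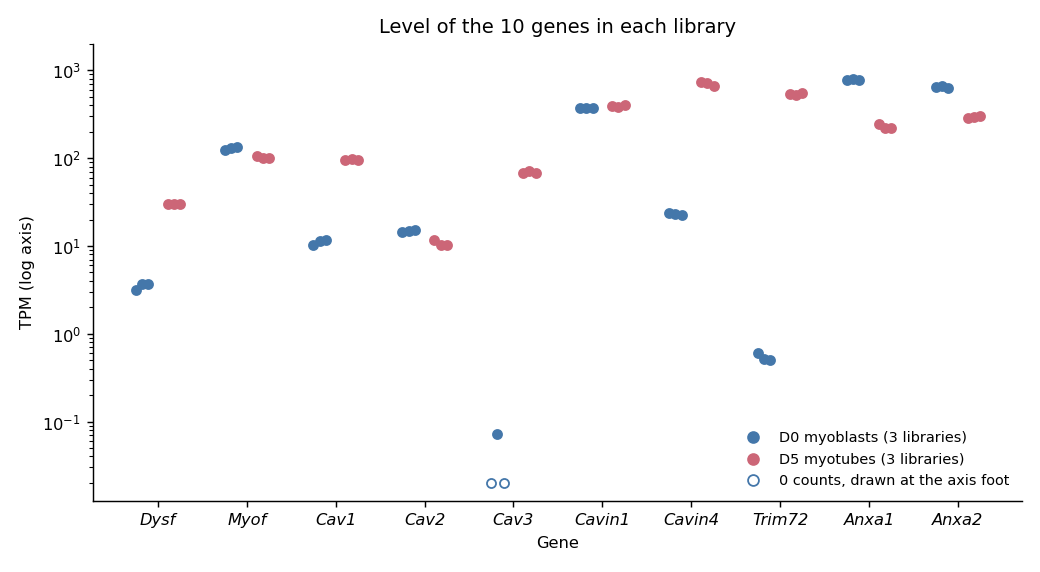
Level of each of the 10 genes in TPM (log axis) in the 3 D0 and 3 D5 libraries, each point a library and replicates 1 to 3 from left to right. *Trim72* moves from a mean of 0.545 to 538 TPM and *Cavin4* from 23.0 to 702, while *Myof*, *Cav2* and *Cavin1* stay near their D0 level; libraries of *Cav3* with no count are drawn as open circles near the foot of the axis.

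Before the values, the stretches of DNA just upstream of 5 of these genes are shown, because they include the genes with the 3 largest rises (*Cav3*, *Trim72* and *Cavin4*) and the neighbours *Cav1* and *Cav2*, which changed in opposite directions. Each is the 250 bases before the first start that RefSeq lists for the gene in GRCm38.p6, plus strand, 5′ to 3′. Capitals mark CANNTG, the E-box core that muscle basic helix-loop-helix factors such as MyoD and myogenin bind.
Cav3: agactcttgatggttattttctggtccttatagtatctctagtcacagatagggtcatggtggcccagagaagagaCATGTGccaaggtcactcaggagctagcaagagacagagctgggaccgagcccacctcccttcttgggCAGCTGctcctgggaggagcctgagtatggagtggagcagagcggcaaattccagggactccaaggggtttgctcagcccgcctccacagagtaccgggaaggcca
Trim72: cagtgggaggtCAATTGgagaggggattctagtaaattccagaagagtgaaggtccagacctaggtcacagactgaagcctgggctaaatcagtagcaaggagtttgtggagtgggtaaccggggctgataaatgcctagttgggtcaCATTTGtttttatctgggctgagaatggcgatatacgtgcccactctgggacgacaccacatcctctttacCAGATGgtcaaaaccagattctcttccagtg
Cavin4: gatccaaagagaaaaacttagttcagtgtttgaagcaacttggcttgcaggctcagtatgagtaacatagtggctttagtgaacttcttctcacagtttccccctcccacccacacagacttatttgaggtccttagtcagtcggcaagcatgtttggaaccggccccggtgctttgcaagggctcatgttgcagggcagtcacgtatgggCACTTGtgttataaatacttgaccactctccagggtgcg
Cav1: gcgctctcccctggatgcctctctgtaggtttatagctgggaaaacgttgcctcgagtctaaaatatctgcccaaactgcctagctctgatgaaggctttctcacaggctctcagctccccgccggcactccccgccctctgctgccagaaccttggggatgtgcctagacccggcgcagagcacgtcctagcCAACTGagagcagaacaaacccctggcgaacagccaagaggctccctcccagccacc
Cav2: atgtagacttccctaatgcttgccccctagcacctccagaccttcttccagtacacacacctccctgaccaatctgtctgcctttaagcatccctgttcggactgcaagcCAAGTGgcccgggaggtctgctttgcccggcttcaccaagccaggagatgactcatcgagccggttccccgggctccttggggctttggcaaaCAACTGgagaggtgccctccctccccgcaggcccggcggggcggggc
The windows are chr6:112459255-112459504 for *Cav3*, chr7:128004128-128004377 for *Trim72*, chr4:48663264-48663513 for *Cavin4*, chr6:17306085-17306334 for *Cav1* and chr6:17280935-17281184 for *Cav2*. The *Trim72* start of RefSeq lies 429 bases inside the gene as GENCODE draws it.

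All 10 genes had at least 1 such window, 13 in all. Matches in members are counted by gene, in any of its windows, and genome shares by single window, so these are unlike measures. CANNTG, a palindrome searched on both strands, occurred in windows of 5 genes, those printed, and in 66.2% of 32851 windows of the same length across the genome. Its form CAGCTG occurred only before *Cav3*, 106 bases upstream of the start, against 13% of all windows. CATTCC, the core that TEAD factors bind, searched on both strands, was in windows of *Cavin1* and *Anxa1*, against 12.6% of all. The MEF2 consensus was in no member's window, against 2.92% of all. *Trim72* held 3 matches of CANNTG, 239, 102 and 31 bases before its start, and *Cavin4* held 1, at 39 bases. *Dysf*, which rose about as much as *Cav1*, had no match of any of these motifs in its windows. A match describes letters in a window and is not a bound site.

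Among the caveolins, the muscle form appeared, *Cav1* rose and *Cav2* fell slightly. *Cav3* (ENSMUSG00000062694.7, GRCm38 chromosome 6, 112459505 to 112472872), the caveolin of skeletal and cardiac muscle, was counted 0, 1 and 0 times at D0 against 615, 668 and 633 times at D5. Every D0 library was thus at or under the limit of 3 counts below which a gene is taken as not detected, while D5 stood at 25.7 ± 1.33 CPM (SD, n = 3), at least 341-fold higher. It ranked 24 among all tested genes by fitted rise. Since *Cav3* passed the filter on low counts through its D5 libraries only, this rank and the p-value below were bound to be extreme. They describe the gene and are no test of its rise. The fitted log2 fold change, 11.04 (SE 0.207, adjusted p = 8.5e-29 in edgeR), depends on the prior count and was 12.61 without D0 replicate 2, which holds the single count. The edgeR SE is too small here, and DESeq2 gave 11.49 with an SE of 1.18.

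*Cav1* (ENSMUSG00000007655.16, chromosome 6, 17306335 to 17341452), the main structural caveolin of non-muscle cells, was measured at 10.3, 11.3 and 11.5 CPM at D0 and at 105, 110 and 106 CPM at D5. The mean rose 9.67-fold, from 11.03 ± 0.610 to 107 ± 2.59 CPM (log2 fold change 3.27, SE 0.0480, edgeR adjusted p = 1.4e-31). This was a rise of the caveolin known from non-muscle cells in the same libraries in which the muscle caveolin appeared. Adipocytes, endothelial cells and fibroblasts also express caveolin-1. The summed level of 5 fibroblast markers moved in the same direction, from 1.28 to 1.54 CPM at D0 to 262 to 302 at D5, and its part in the rise of *Cav1* was not tested. The 5 adipocyte markers, none of which entered the test, had at most 1 count in any library, 3 of them (*Lep*, *Cidec* and *Cfd*) with 0 throughout. The summed endothelial markers went from 3.31 to 3.59 CPM at D0 to 0.518 to 0.884 at D5. Of these 5 markers, 2 were tested and both were lower, but they passed the filter on low counts only because of their D0 libraries. *Emcn* was at 0 in all libraries, and *Cdh5* had 0, 0 and 1 counts at D0 and 2, 1 and 3 at D5.

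*Cav2* (ENSMUSG00000000058.6, chromosome 6, 17281185 to 17289115) encodes the caveolin that needs caveolin-1 to reach the cell surface. It stood at 14.0, 14.2 and 14.4 CPM at D0 and at 12.26, 11.08 and 10.97 CPM at D5. All 3 D5 values were lower, with a mean at 80.5% of D0 (log2 fold change -0.31, SE 0.0685, edgeR adjusted p = 0.00013). With ERCC scaling the estimate was -0.89, but with a wider SE of 0.526 it no longer passed the test (adjusted p = 0.18). All genes together had a median of -0.60 under that scaling, so the larger size does not mark a stronger fall. *Cav2* and *Cav1* are neighbours on the plus strand, *Cav2* first, with 17.2 kb between them.

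The make-up of the family therefore changed. Summed over the 3 genes, caveolin RNA went from 25.8 ± 1.19 to 175 ± 3.21 TPM, 6.79 times the D0 level. *Cav2* made up 57.1% ± 1.14 of it at D0 and 6.07% ± 0.514 at D5. *Cav1* went from 42.8% ± 1.07 to 54.7% ± 0.373, and *Cav3* from 0.0907% to 39.2% ± 0.869. At D5 the order was *Cav1*, *Cav3*, *Cav2*, with no overlap between neighbours in any library, and it held with the length of the longest transcript in place of all exons, where *Cav3* took 34.0%. The ratio of *Cav1* to *Cav2* in TPM was 0.713, 0.769 and 0.771 at D0 and 8.28, 9.58 and 9.31 at D5, so their order turned. This ratio does not depend on how libraries are scaled. With 3 libraries against 3 the exact two-sided permutation test cannot go below p = 0.1, which this ratio reached.

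**Figure D2:**
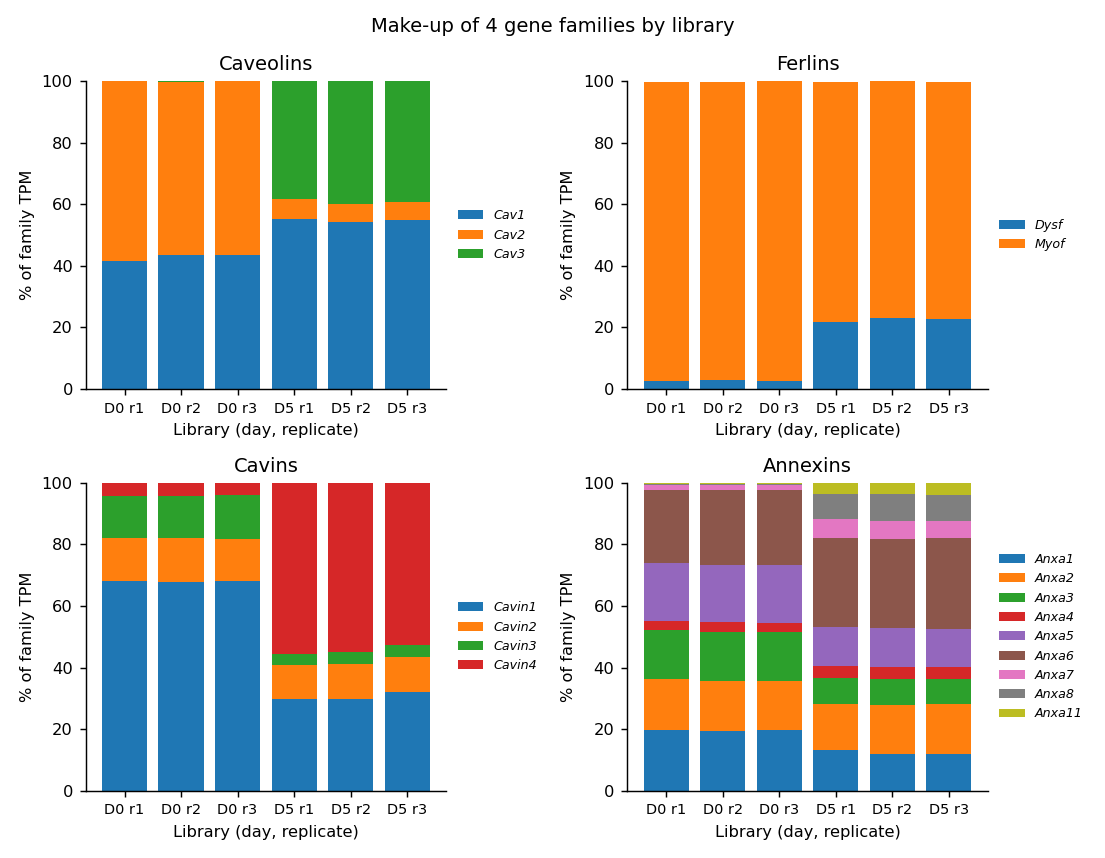
Stacked bars from 0 give the percent of each family's summed TPM held by its genes, 1 bar a library (r1 to r3, replicates) and 1 panel a family, leaving out genes with very small shares. The mean share of *Cav2* falls from 57.1% to 6.07% of the caveolins, that of *Cavin4* climbs from 4.16% to 54.4% of the cavins and that of *Dysf* from 2.65% to 22.6% of the ferlins.

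The 2 cavins among the members both rose, to very different degrees. *Cavin4* (ENSMUSG00000028348.7, chromosome 4, 48663514 to 48673502), the muscle cavin found at caveolae of the sarcolemma and at T-tubules, was at 14.3, 13.6 and 13.1 CPM at D0 and at 473, 479 and 443 CPM at D5. That was 34.0-fold more (log2 fold change 5.09, SE 0.0452, edgeR adjusted p = 4.3e-37), and the gene went from rank 6160 to rank 142 of all genes by TPM. Unlike *Cav3*, it was clearly present before differentiation, with 528 to 571 counts in each D0 library.

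*Cavin1* (ENSMUSG00000004044.9, chromosome 11, 100956733 to 100970887, minus strand), also called PTRF, is required for caveolae to form. Its level was 397, 385 and 386 CPM at D0 and 444, 451 and 473 CPM at D5. The groups did not overlap, yet the D5 mean was only 1.17 times the D0 mean (log2 fold change 0.23, SE 0.0327, edgeR adjusted p = 2.6e-07), and under ERCC scaling the direction turned to -0.35, which did not pass the test (adjusted p = 0.63). Set against the median of all genes under that scaling, *Cavin1* was at 0.26. Taking off that median undoes the spike-in scaling, so a value close to that with TMM was fixed in advance and is no support for the rise.

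Within the cavin family, *Cavin1* held 68.0% ± 0.318 of the TPM at D0 and 30.6% ± 1.41 at D5, while *Cavin4* went from 4.16% ± 0.110 to 54.4% ± 1.58. *Cavin2*, also called SDPR, went from 13.9% to 11.1% although its own level rose by 1.06 on the log2 scale (edgeR adjusted p = 1.8e-21), from 67.8 to 141 CPM, and *Cavin3* went from 14.0% to 3.94%. *Cavin4* RNA was 0.0628, 0.0615 and 0.0594 times that of *Cavin1* at D0 and 1.86, 1.85 and 1.63 times at D5, so the muscle cavin passed the general one in all 3 D5 libraries (exact permutation p = 0.1, the smallest possible). The summed cavins rose 2.34-fold, from 552 ± 1.23 to 1289 ± 26.6 TPM. *Cav1* stayed below *Cavin1* in both groups, at 0.0295 of its TPM at D0 and 0.244 at D5.

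The other 9 genes that coat caveolae or form their necks counted 6 higher, 2 lower and 1 not called, with a median log2 fold change of 0.71. The largest rise was that of *Pacsin1*, a membrane-bending F-BAR protein, which had 0, 1 and 0 counts at D0 and 135, 173 and 173 at D5, at least 85.6-fold higher, and which passed the filter on low counts through its D5 libraries only. Its relative *Pacsin3*, the form abundant in muscle, rose by 2.29 on the log2 scale, from 34.1 to 167 CPM. *Ehd4*, a dynamin-like ATPase of membranes, rose by 1.19. The 2 genes that fell were *Ehd1* (-0.60) and *Cavin3* (-0.44), and *Ehd2*, which holds the caveola neck, was at 150 CPM at D0 and 146 at D5 (log2 fold change -0.04, adjusted p = 0.30). It was called lower with total counts (-0.12, adjusted p = 0.0015) and with no filter (-0.09, adjusted p = 0.027). *Cavin3* shares 22.5% of its exonic bases with a gene on the opposite strand.

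The ferlin pair moved apart: *Dysf* rose strongly and *Myof* fell a little. *Dysf* (ENSMUSG00000033788.15, chromosome 6, 84008590 to 84211060) encodes dysferlin, the protein lost in limb-girdle muscular dystrophy and Miyoshi myopathy. Its level was 7.77, 8.85 and 8.82 CPM at D0 and 78.0, 82.0 and 80.5 CPM at D5, 9.46-fold higher in the mean (log2 fold change 3.24, SE 0.0529, edgeR adjusted p = 2.3e-30). The D5 libraries differed by little, with an SD of 1.99 CPM around a mean of 80.2.

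*Myof* (ENSMUSG00000048612.16, chromosome 19, 37899036 to 38043577, minus strand), the ferlin tied to myoblast fusion, stood at 462, 471 and 479 CPM at D0 and at 420, 411 and 415 CPM at D5. The D5 mean was 88.3% of the D0 mean (log2 fold change -0.18, SE 0.0313, edgeR adjusted p = 5.5e-06). With ERCC scaling the estimate was -0.75, but with a wider SE of 0.516 it missed the threshold (adjusted p = 0.26). The median of all genes was itself at -0.60 under that scaling, so the larger size does not mark a stronger fall.

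In TPM, *Myof* remained the more abundant ferlin in every library. *Dysf* was at 0.0255, 0.0284 and 0.0279 times the TPM of *Myof* at D0 and at 0.281, 0.302 and 0.293 times at D5, a 10.7-fold shift of the ratio (exact permutation p = 0.1, the smallest possible). The share of *Dysf* among all 6 ferlin genes was 2.65% ± 0.150 at D0 and 22.6% ± 0.632 at D5. The summed ferlins were 133 ± 4.55 TPM at D0 and 132 ± 3.08 at D5, a difference within the spread of the libraries on that scale. On the TMM scale *Dysf* and *Myof* summed to 469.8 to 487.4 CPM at D0 and to 493 to 498.1 at D5, without overlap. Of the 4 remaining ferlins, *Fer1l6* fell, with 20, 32 and 18 counts at D0 and 1, 2 and 2 at D5, at least 4.82-fold lower. It passed the filter on low counts through its D0 libraries only, which favoured a fall. *Otof* had no count in any library, *Fer1l4* had 1 count in 1 D0 library, and *Fer1l5* had at most 1 count at D0 and 11, 4 and 9 at D5, too few for the test.

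**Figure D3:**
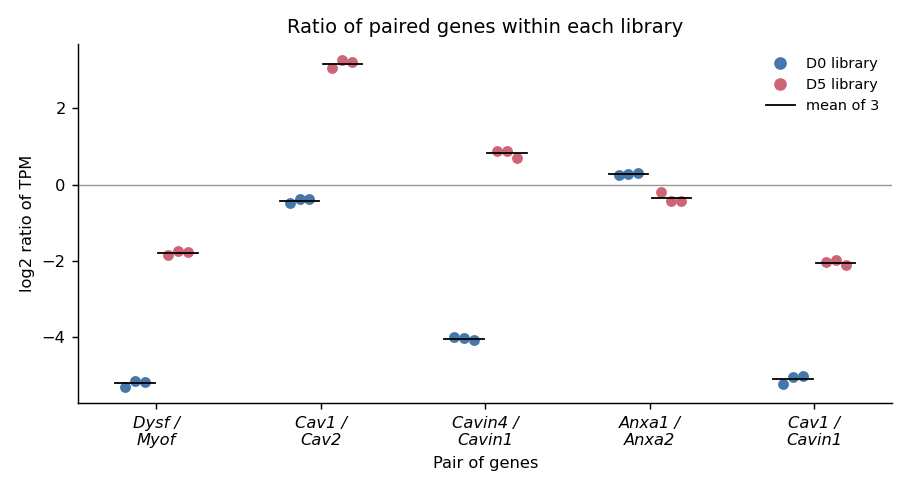
Log2 ratio of the TPM of 5 gene pairs in each of the 3 D0 and 3 D5 libraries (points) with the group mean (line). The ratio of *Cavin4* to *Cavin1* crosses from -4.03 to 0.83 and that of *Cav1* to *Cav2* from -0.41 to 3.18, that of *Anxa1* to *Anxa2* turns from 0.27 to -0.36, and *Dysf* stays below *Myof* at -1.78.

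*Trim72* (ENSMUSG00000042828.12, chromosome 7, 128003949 to 128011033), the muscle repair protein MG53, had the largest fold among the members detected in both groups. It had 15, 14 and 13 counts at D0 and 9472, 9541 and 9895 at D5. In scaled levels this was 0.400, 0.333 and 0.323 CPM against 377, 387 and 398 CPM, about 1100-fold (log2 fold change 10.09, SE 0.0706, edgeR adjusted p = 1.8e-39). With so few counts at D0 this SE is too small, and DESeq2 gave 10.12 with an SE of 0.225. Its rank by TPM went from 16698 to 199, and it was the second most abundant of the 10 genes at D5 after *Cavin4*. Of its exonic bases, 27.6% lie opposite *Gm15533*, a gene with 0 counts in each D0 library and 7 to 12 at D5. The strand setting of the counting is not stated, so reads from that stretch cannot be assigned to either gene with certainty.

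The annexin pair fell. *Anxa1* (ENSMUSG00000024659.14, chromosome 19, 20373428 to 20390944, minus strand) encodes a calcium-dependent membrane binder known for aggregating vesicles and damping inflammation. It was at 664, 668 and 645 CPM at D0 and at 227, 210 and 209 CPM at D5. The D5 mean was 32.7% of the D0 mean (log2 fold change -1.61, SE 0.0353, edgeR adjusted p = 4.7e-27). *Anxa2* (ENSMUSG00000032231.14, chromosome 9, 69453620 to 69491795), which binds S100A10 and actin at the membrane, was at 718, 709 and 668 CPM at D0 and at 334, 363 and 363 CPM at D5. It came to 50.6% of its D0 level (log2 fold change -0.98, SE 0.0364, edgeR adjusted p = 4.8e-21).

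*Anxa1* was the more abundant of the pair in TPM at D0 and the less abundant at D5. The ratio of *Anxa1* to *Anxa2* was 1.19, 1.21 and 1.24 at D0 and 0.872, 0.740 and 0.740 at D5 (exact permutation p = 0.1, the smallest possible). Both had been the most abundant of the 10 genes at D0, with means of 782 and 647 TPM, and at D5 they stood at 230 and 293 TPM, below *Cavin4*, *Trim72* and *Cavin1*.

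Over all 12 annexins, summed TPM fell from 3992 ± 86.2 to 1869 ± 19.3. *Anxa1* went from 19.6% ± 0.146 to 12.3% ± 0.699 of this sum, whereas *Anxa2* was at 16.2% ± 0.310 and 15.7% ± 0.605. The other 10 annexins had 8 genes above the filter, 3 higher, 4 lower and 1 not called, with a median log2 fold change of -0.30. *Anxa8* rose by 3.79 on the log2 scale, from 6.80 to 94.1 CPM, *Anxa11* by 2.40 and *Anxa7* by 1.01. The falls were led by *Anxa3* (-1.87), *Anxa5* (-1.54), the annexin whose protein is used to stain dying cells, and *Anxa6* (-0.66). *Anxa10* had no count in any library. *Anxa13* had 16, 2 and 6 counts at D0 and at most 1 in a D5 library, and did not enter the test.

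**Figure D4:**
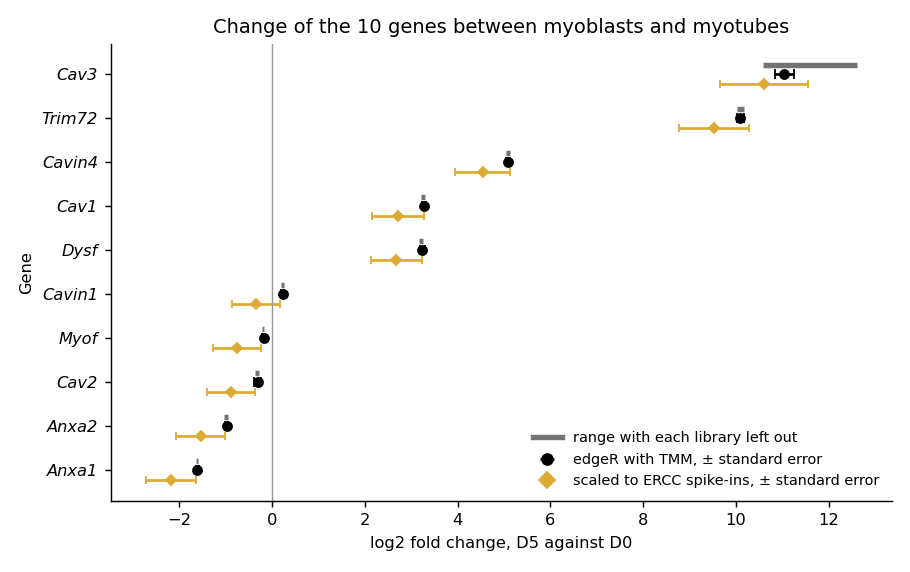
Log2 fold change of each of the 10 genes at D5 against D0 (edgeR): black points with TMM and yellow diamonds with ERCC scaling, each with a bar of 1 standard error, and grey strokes for the range with each library left out. The black bars of *Cav3* and *Trim72*, which have few D0 counts, are too short, and DESeq2 gave standard errors of 1.18 and 0.225. With TMM the values run from 10.09 for *Trim72* down to -1.61 for *Anxa1*; the point of *Cav3*, 11.04, depends on the prior count because its D0 libraries are at or under 3 counts, and only *Cavin1* has its diamond on the other side of 0.

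Genes that work with these members were read from lists set up alongside them, 50 genes in 8 lists that include the relatives above. Of the 50, 45 were tested, 23 were higher, 17 lower and 5 not called, shares of 51.1% and 37.8% of those tested against 42.2% and 40.8% of all tested genes. Their median absolute log2 fold change was 0.67, the same as over all genes to 2 decimals, and 35.6% exceeded 1 in size against 35.3%. With ERCC scaling 5 were higher (*Pacsin1*, *Pacsin3*, *Anxa8*, *Anxa11* and *Capn3*) and 6 lower (*Fer1l6*, *Anxa3*, *Anxa5*, *S100a11*, *Parvb* and *Capn2*). Of these, *Pacsin1* and *Fer1l6* passed the filter on low counts only through the group in which they were higher. Under that scaling, with its wider standard errors, the other calls among the 50 genes, in the paragraphs above and below, did not pass the test. Among the larger rises, *Bin1* was then at 1.23 (adjusted p = 0.053), *Mtm1* at 0.89 (0.18), *Capn1* at 0.70 (0.30) and *Ehd4* at 0.62 (0.36). *Anxa7* was at 0.44 (0.53), *Cavin2* at 0.51 (0.46), *Ahnak* at 0.27 (0.71) and *Chmp2a* at 0.18 (0.81). Among the falls, *Anxa6* was at -1.23 (0.054), *Ehd1* at -1.17 (0.068), *Cavin3* at -1.01 (0.12) and *S100a10* at -0.98 (0.13).

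Among 4 partners of dysferlin and the annexins, *Ahnak*, a giant scaffold protein, rose by 0.83 on the log2 scale, and 3 fell: *S100a11* (-1.59), *Parvb* (-0.84) and *S100a10* (-0.42), the light chain that pairs with annexin A2. Of 3 genes that shape the T-tubule membrane, *Bin1*, which bends the tubules, rose by 1.80, from 437 to 1520 CPM, and *Mtm1*, the lipid phosphatase of myotubular myopathy, by 1.44. *Dnm2*, the dynamin that cuts membrane necks, was at 128 CPM at D0 and 121 at D5 (log2 fold change -0.08, edgeR adjusted p = 0.024). That call was lost in DESeq2, without D0 replicate 3, without D5 replicate 2 and with ERCC scaling, where the adjusted p was 0.060, 0.054, 0.073 and 0.33.

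Of 4 calpains, the calcium-activated proteases, *Capn3*, the muscle form, rose by 2.24 on the log2 scale and *Capn1* by 1.26, while *Capn2* fell by 1.42 and the shared small subunit *Capns1* by 0.17. *Capn2* shares 27.1% of its exonic bases with a gene on the opposite strand. The 10 genes of the ESCRT machinery, which pinches off damaged membrane, moved little: 5 were higher, 3 lower and 2 not called, with a median of 0.10. The largest rises were those of *Chmp4c* (0.89), *Chmp2a* (0.71) and *Chmp3* (0.33, but -0.25 with ERCC scaling), and the falls were *Tsg101* (-0.48), *Pdcd6ip* (-0.22), which encodes ALIX, and *Vps4b* (-0.11). The fall of *Vps4b* did not pass the test without D5 replicate 2 (adjusted p = 0.11). *Vps4a*, not called with all libraries, was called higher in 1 of the fits with a library left out. Of 6 genes for lysosomal and vesicle exocytosis, 4 were higher, led by *Stx4a* (0.74), *Snap23* (0.67) and *Vamp3* (0.60), *Vamp7* was lower (-0.23) and the calcium sensor *Syt7* was not called, at 0.427 CPM at D0 and 0.295 at D5.

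**Figure D5:**
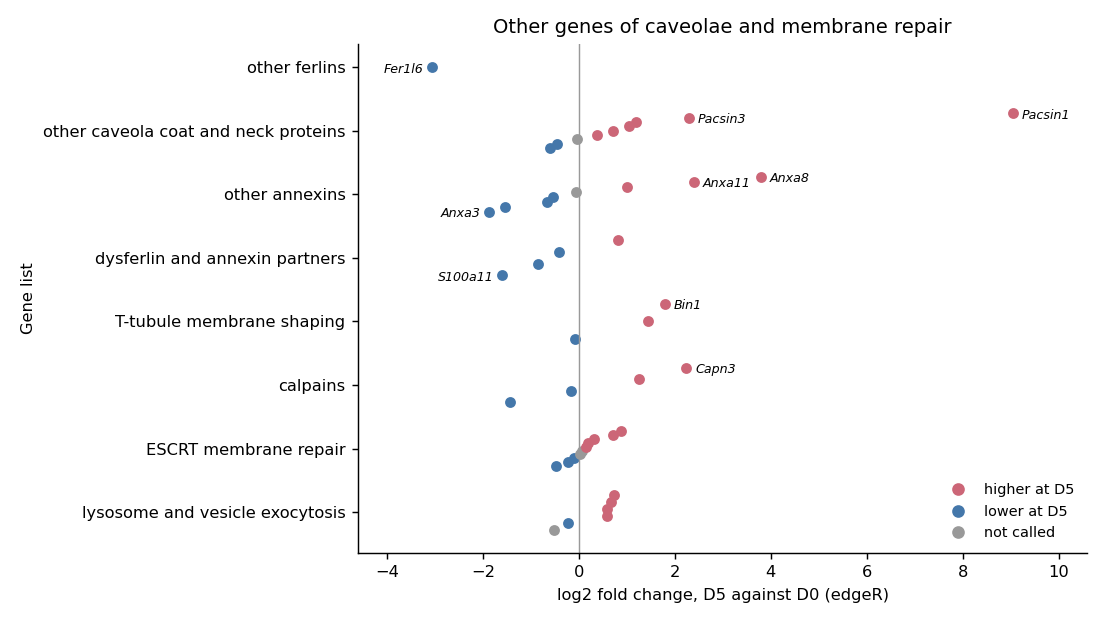
Log2 fold change at D5 against D0 (edgeR, TMM) of the 45 tested genes that accompany the members, 1 point a gene, in rows by list and coloured by call. Most lie within 1 of 0, and *Pacsin1* at 9.05, a value that depends on the prior count, and *Anxa8* at 3.79 lie farthest to the right.

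Markers of other cells were set beside these results because several members are also expressed outside muscle. Of the 5 fibroblast markers given beside *Cav1*, 3 were tested and called higher, of which *Lum*, with 0 counts in each D0 library, passed the filter through its D5 libraries only. *Dcn*, with 12, 13 and 20 counts at D0, also passed that filter only because of its D5 libraries. It made up most of the sum at D5, with a mean of 242 CPM. *Thy1* had at most 1 count in a library. The sum also moved in the direction of *Dysf* and *Cavin4*, and its part in those rises was not tested. The 5 macrophage markers summed to 0.107 to 0.298 CPM at D0 and 0.482 to 0.933 at D5, with *Adgre1* at 0 throughout. No stretch of 50 bases in a transcript of any of the 10 genes occurred exactly in an annotated transcript of another gene. Copies that differ in some bases or are not annotated were not searched for. *Dysf* shares 5.49% and *Anxa2* 2.63% of exonic bases with genes on the opposite strand, none of which had more than 17 counts in a library.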

How the data were processed

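Total RNA from 6 C2C12 samples was sequenced. The authors deposited unnormalized counts per gene for each library, made with featureCounts on reads aligned to GRCm38. Different aligners are named in the paper and in the labels, and the strand setting, the annotation release and the handling of reads with several matches are not given in the sources used here. From these counts, 92 ERCC rows and a row without a name, equal to the column total, were left out of library sizes; the spike-ins took 0.720% to 2.09% of counts. Of the gene rows, 99.93% matched GENCODE M21, which gave positions and exonic lengths.

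Counts were analysed with edgeR 4.0.16 in R 4.3.3: filterByExpr, TMM factors, and the quasi-likelihood test of D5 against D0 without covariates, with Benjamini-Hochberg adjustment over 16290 genes. The standard error was taken as the size of the log2 fold change over the square root of F. For genes with few counts in a group this is too small. For *Cav3* and *Trim72* it gave 0.207 and 0.0706, against 1.18 and 0.225 in DESeq2. A gene with 3 counts or fewer in every library of a group was taken as not detected there, and folds against it are lower bounds set at 3 counts per library, which covers counting error only. Replicates differed by more than sampling noise (chi-square per degree of freedom 2.28 to 3.71). The model was tested on simulated data.

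The members and lists were chosen with earlier results of these data known. Named are all 10 members and, from each other list, up to 3 genes with the largest rise and 3 with the largest fall past the threshold, plus genes without counts; *Ehd2*, *Syt7*, *Fer1l5*, *Anxa13*, the markers *Cdh5*, *Lum* and *Dcn* and the neighbours on the opposite strand were added after their values were seen. Alternatives were DESeq2 1.42.0, upper-quartile factors, total counts, ERCC scaling, other count filters, the longest transcript as length, each library left out, and a replicate block. Promoter windows came from RefSeq.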

Additional observations from a re-analysis of the deposited data

How the results depend on the processing

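The calls and directions of *Dysf*, *Cav1*, *Cavin4*, *Trim72*, *Anxa1* and *Anxa2* held under every alternative tried, as did that of *Cav3* except with at least 10 counts required in every library, where it gave no value. ERCC scaling, in which the spike-in share of the D5 libraries ran from 0.720% to 2.09%, left 2 members lower, 5 of the other genes higher and 6 lower, and 1640 of all genes higher and 3897 lower. It gave -0.75 for *Myof*, -0.89 for *Cav2* and, reversed, -0.35 for *Cavin1*. Also reversed with it were *Ehd3* (-0.23), *Pdcd6* (-0.52), *Chmp2b* (-0.40), *Chmp3* (-0.25), *Chmp4b* (-0.42) and *Vps4a* (-0.52). *Pdcd6* and *Vps4a*, not called with TMM, were at -0.053 and -0.025 with total counts, and *Pdcd6* at -0.022 with no filter. Without single libraries *Pdcd6* ranged from -0.040 to 0.052 and *Anxa9* from -0.14 to 0.060. The members remained 6 higher and 4 lower in count without any single library, and the other genes were 23 to 25 higher and 15 to 17 lower. With total counts, 22 of the other genes were higher and 18 lower.

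With the longest transcript as length, *Cav1* and *Cav3* took 59.6% and 34.0% of the caveolins at D5, *Dysf* 1.84% and 16.7% and *Myof* 98.0% and 83.2% of the ferlins at D0 and D5, *Cavin1* 68.6% of the cavins at D0, *Anxa1* 22.1% and 14.6% and *Anxa2* 17.2% and 17.5% of the annexins at D0 and D5. In the labels, same-number libraries shared only a number. Their deviations correlated at 0.0277 to 0.0645, against -0.0435 to 0.0103 for the other pairings, and all 6 libraries correlated best with their own number. Whether they shared a batch was not tested. With the replicate block, 6894 genes were higher and 6664 lower, the members stayed at 6 and 4, and no call of a member or other listed gene changed. At this depth *Cav3* at D0 is limited to an average of 0.0753 CPM, the level of 3 counts per library.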
